A study of Mus musculus with 48 samples.

Results

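The 8 genes followed here encode the colony-stimulating factors and their receptors: the ligands Csf1, Il34, Csf2 and Csf3, and the receptor subunits Csf1r, Csf2ra, Csf2rb and Csf3r. They were taken by gene symbol, a rule that uses no measured value, though the family was picked with earlier results of these data known. They are 8 of the 19938 genes that the array measured with a transcript cluster of their own. A transcript cluster is a set of array probes read together as 1 gene, and each of the 8 genes had 1 such cluster. No filter on low signal was applied, so all 8 entered every test.

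Colony-stimulating factors are secreted proteins that set the growth, survival and maturation of macrophages, neutrophils and other myeloid cells. Csf1 (macrophage colony-stimulating factor) and the interleukin Il34 are alternative ligands of the receptor tyrosine kinase Csf1r, on which most tissue macrophages depend. Csf2 (granulocyte-macrophage colony-stimulating factor) binds a receptor made of the ligand-specific chain Csf2ra and the common beta chain Csf2rb, which signals through Jak2 and Stat5, and Csf3 (granulocyte colony-stimulating factor) acts through Csf3r, carried mainly by neutrophils and their precursors. In mammary tumors, malignant and stromal cells can make the ligands, whereas the receptors mark mostly myeloid cells of the host.

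The 48 samples were primary mammary tumors from 12 mouse models, with 4 independent tumors per model and 1 array per tumor. The Balb/c models EMT-6, TS/A-E1, 4T1, F311 and D2A1 use lines from spontaneous tumors, the FVB/N models M6, Met-1, MVT-1, HRM-1 and 6DT1 use lines from engineered ones, E0771 is a spontaneous C57Bl/6 line and R3T an engineered 129Sv line. Transgenes are named for MVT-1 only, whose line arose in a mouse with Myc and VEGF under the MMTV promoter, which is active in mammary epithelium. Every model consisted of cells of 1 line placed into fat pad number 4 of mice of the same strain with intact immunity, and the labels give no treatment. The labels give neither sex nor age. The study's methods give females of 6 to 8 weeks for tumors of its protein work, and whether this holds for all array tumors is not stated. The tumors were taken at 0.5 to 1.0 cm, so the 4 tumors of a model are repeats of 1 line in separate hosts. No normal gland was among the arrays analysed here, and the models serve as each other's comparison. Because whole tumors were profiled, fewer cells of a type and less RNA per cell cannot be told apart in any value below.

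All values are the deposited log2 signals, on which a step of 1 is a doubling of the signal. They ran from 3.49 to 14.12, with array medians of 6.76 to 6.99. Precision is limited by having 4 tumors per model. Markers of host tissue set some tumors apart. A tumor's list score is the mean over a marker list of log2 signal minus each gene's mean over the 48 tumors. In 9 tumors the score of B cell or adipocyte markers, taken here from each gene's median in place of its mean, was above 2.5: 4T1 replicate 3, 6DT1 replicates 2 and 3, E0771 replicate 1, EMT-6 replicate 3, F311 replicates 1 and 2, Met-1 replicate 2 and R3T replicate 2. Without these tumors the F-tests of the members kept their side of the threshold, while 5 of 47 calls for single models and 1 correlation were lost, as given below. Epithelial markers also varied over the models. Among them, the cell adhesion gene Cdh1 averaged 11.81 ± 0.48 in M6 tumors and 7.30 ± 1.14 in E0771 tumors (SD, n = 4 each).

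Promoter sequence was taken for the members from RefSeq (build GRCm38.p6), which gave a window for 4 of the 8 genes, namely Csf1, Csf2, Csf2ra and Csf3r. These 3 stretches are printed because Csf1 is the ligand that differed most widely between EMT-6 and M6 tumors below, and because both receptor genes fell in M6 tumors together with Spi1, which encodes the myeloid factor PU.1. The Csf1 line holds the 250 bases before the start site (chr3:107760470-107760719, minus strand). Capitals there mark a match to the NF-κB consensus, whose first base lies 154 bases before the start. The other lines hold 30 bases each, at chr19:61228419-61228448 (minus strand) for Csf2ra and at chr4:126024561-126024590 (plus strand) for Csf3r, and capitals mark GAGGAA, the core of the PU.1 motif.
Csf1: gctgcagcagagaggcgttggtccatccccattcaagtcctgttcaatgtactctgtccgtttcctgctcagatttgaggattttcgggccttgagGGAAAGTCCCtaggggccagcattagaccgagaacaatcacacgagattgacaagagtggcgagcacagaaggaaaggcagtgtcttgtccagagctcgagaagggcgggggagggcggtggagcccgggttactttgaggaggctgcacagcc
Csf2ra: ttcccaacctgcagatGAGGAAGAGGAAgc
Csf3r: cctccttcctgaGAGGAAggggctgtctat
Both motifs were searched on both strands of the 250 bases before each start, and no match of one overlapped a match of the other in the printed lines. GAGGAA occurred 2 times for Csf2ra, 1 time for Csf3r and 0 times for Csf1 and Csf2, and 23.3% of 32851 RefSeq windows of this length held it. The NF-κB consensus occurred 1 time each for Csf1 and Csf3r and 0 times for Csf2 and Csf2ra, against 7.25% of all windows. These matches describe the letters of the windows and do not show binding.

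Levels of all 8 members varied over the 12 models in the F-test of limma at a Benjamini-Hochberg adjusted p under 0.05, where 70.4% of all genes tested did so. The distance from the lowest to the highest model mean was 2.69 for Il34 and 2.60 for Csf1, or 6.44-fold and 6.05-fold. It lay between 1.69 and 1.77 for the 4 receptor subunits and was 1.27 for Csf3 and 1.17 for Csf2. The median over the members was 1.75, against 0.68 over all genes. The model accounted for 90.2% of the variance of Il34, 89.8% of that of Csf1, and 68.2% and 70.7% of those of Csf2rb and Csf1r, the members whose tumors of 1 model varied most.

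Csf1 (gene ID 12977, transcript cluster 10501164, chromosome 3) had its highest signal in EMT-6 tumors and its lowest in M6 tumors. The 4 EMT-6 tumors had log2 signals of 11.40, 11.28, 11.06 and 11.30, and no tumor of another model was above the 10.74 of a TS/A-E1 tumor. All EMT-6 tumors therefore stood above all others. The EMT-6 mean was 11.26 ± 0.14 (SD, n = 4), against 10.13 for the mean of the other 11 models, a difference of 1.13 (standard error 0.12, adjusted p = 2.76e-09 from limma), or 2.19-fold. The M6 tumors had Csf1 signals of 8.04, 8.51, 9.44 and 8.67, and the lowest tumor of any other model was a Met-1 tumor at 9.53. All M6 tumors thus lay below all others, although they spread over more than 1 unit among themselves. The M6 mean was 8.67 ± 0.58 (SD, n = 4), against 10.36 for the other 11 models, lower by 3.25-fold (difference -1.70, standard error 0.12, adjusted p = 1.85e-14 from limma).

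Between these ends the Csf1 means formed a dense series. The means of TS/A-E1 (10.63), E0771 (10.60), R3T (10.52), MVT-1 (10.36), D2A1 (10.30), F311 (10.27), HRM-1 (10.25), 4T1 (10.20) and 6DT1 (9.97) formed an order in which neighbors overlapped tumor by tumor. Met-1 tumors, at 9.73, 9.53, 9.69 and 9.58, lay below all 6DT1 tumors and above all M6 tumors. Their mean of 9.63 ± 0.09 (SD, n = 4) was lower than that of the other 11 models, 10.28, by a difference of -0.64 (standard error 0.12, adjusted p = 4.58e-05 from limma).

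Il34 (gene ID 76527, transcript cluster 10581664, chromosome 8), the second ligand of Csf1r, was ordered differently from Csf1. It was highest in R3T tumors, with 10.23, 9.89, 10.14 and 10.24, and every R3T tumor exceeded the highest tumor of HRM-1, the next model, at 9.61. The R3T mean of 10.12 ± 0.16 (SD, n = 4) stood against 8.52 for the other 11 models, a difference of 1.61 (standard error 0.15, adjusted p = 5.86e-11 from limma), or 3.04-fold. The lowest Il34 signals were those of Met-1 tumors, at 7.41, 7.60, 7.55 and 7.19, followed by M6 tumors at 7.49, 7.44, 8.11 and 7.60. Met-1 and M6 overlapped each other, and M6 also overlapped D2A1 (7.95, 8.11, 7.93 and 7.61). Met-1 differed from the other 11 models by -1.33 (7.44 ± 0.19, SD, n = 4, against 8.76, adjusted p = 2.91e-09 from limma), and M6 by -1.08 (7.66 ± 0.31, SD, n = 4, against 8.74, adjusted p = 1.17e-07 from limma).

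In EMT-6 tumors the 2 ligands of Csf1r passed in opposite directions. Where Csf1 was highest, Il34 had 7.93, 8.07, 7.75 and 8.25 in the 4 EMT-6 tumors. Their mean was lower by 0.71 than the 8.71 of the other 11 models (SD within EMT-6 0.22, n = 4, adjusted p = 0.000299 from limma). Of the other means, those of HRM-1 (9.45), E0771 (9.22) and MVT-1 (9.12) passed as higher than the rest and that of D2A1 (7.90) as lower. Those of 6DT1 (8.92), F311 (8.85), TS/A-E1 (8.59) and 4T1 (8.57) did not pass. Among F311 tumors Il34 was 7.91 in replicate 1 and 9.13, 9.13 and 9.23 in replicates 2, 3 and 4. Replicate 1 also had a B cell score of 4.66, the highest of the 48 tumors, and an adipocyte score of 3.29. Replicate 2, with Il34 at 9.13, had a B cell score of 2.97. The part of these scores in the low Il34 of replicate 1 was not tested.

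Csf2 (gene ID 12981, transcript cluster 10385912, chromosome 11) had a mean of 5.59 over the 48 tumors, which placed it among the dimmest 30% of genes on the array. It was highest in R3T tumors, at 6.85, 6.37, 6.39 and 6.16, and no tumor of another model was above the 6.12 of a 4T1 tumor. All R3T tumors thus exceeded all others, the lowest of them narrowly. The R3T mean was 6.44 ± 0.29 (SD, n = 4), against 5.52 for the other 11 models, a difference of 0.93 (standard error 0.08, adjusted p = 3.15e-11 from limma). The mean of the other models lies under 5.65, the limit of the dimmest 30%, where background is a large part of the signal, so no fold is given. HRM-1 tumors followed with 6.08, 5.74, 6.07 and 6.05, a mean of 5.99 ± 0.16 (SD, n = 4), higher than the rest by 0.43 (adjusted p = 0.000112 from limma). The other models overlapped their neighbors down to Met-1, whose mean of 5.27 ± 0.09 (SD, n = 4) was the lowest.

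Csf3 (gene ID 12985, transcript cluster 10380999, chromosome 11) was high in 2 models. In 4T1 tumors it had 7.55, 8.26, 8.03 and 7.66, and in HRM-1 tumors 7.57, 7.53, 7.48 and 7.99. These 8 tumors overlapped each other and lay above all tumors of the other 10 models, of which the highest was an M6 tumor at 7.28. The 4T1 mean of 7.88 ± 0.33 (SD, n = 4) stood against 6.86 for the other 11 models, a difference of 1.02 (standard error 0.11, adjusted p = 8.23e-09 from limma), or 2.02-fold. The HRM-1 mean of 7.64 ± 0.24 (SD, n = 4) exceeded the rest by 0.76 (standard error 0.11, adjusted p = 2.51e-06 from limma). The other 10 means ran from 6.61 in D2A1 to 6.99 in M6, and neighbors in that order overlapped. Of 14 neutrophil markers, 2 were higher and 1 lower in 4T1 tumors, and 2 higher and 0 lower in HRM-1 tumors. The median difference over the list was -0.09 in 4T1 and 0.04 in HRM-1. By the list score, a mean, 4T1 averaged 0.15 ± 0.19 and HRM-1 0.17 ± 0.09 (SD, n = 4 each). Only Met-1 (0.69) and EMT-6 (0.18) had higher mean neutrophil scores. The 4 markers with the smallest F-test p peaked in 4 different models, Ly6g in E0771 (8.49), S100a8 in Met-1 (9.24), the chemokine receptor gene Cxcr2 in HRM-1 (8.50) and the gelatinase gene Mmp9 in 4T1 (12.16).

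**Figure D1:**
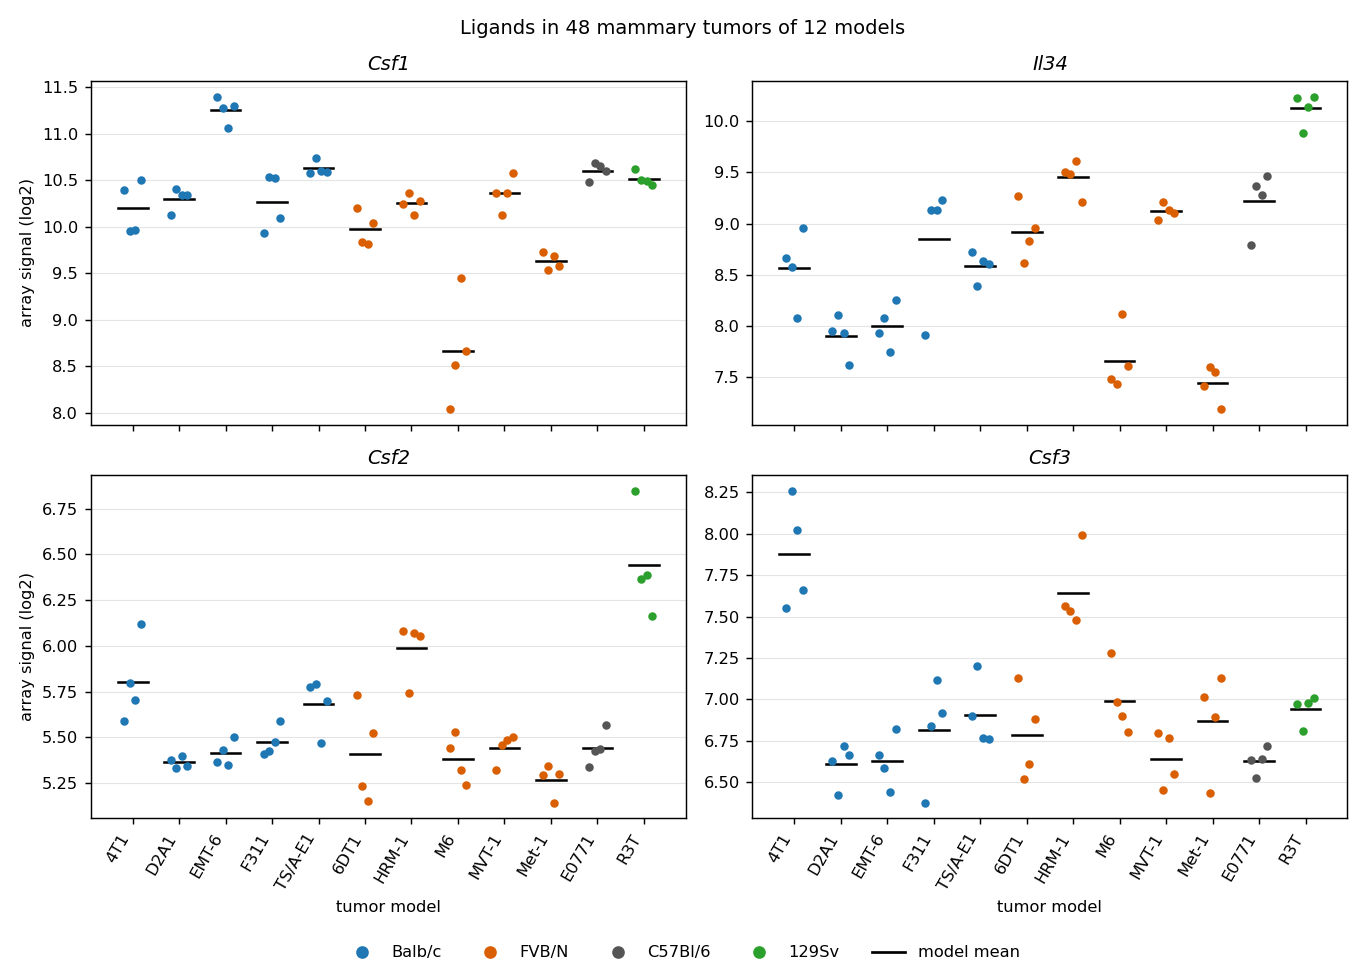
Log2 array signal (vertical axis) of the ligands Csf1, Il34, Csf2 and Csf3 in the 12 tumor models (horizontal axis), grouped and colored by strain; each point is 1 tumor, 4 per model, and each bar is the model mean. Csf1 peaks in EMT-6 (mean 11.26) and is lowest in M6 (8.67), Il34 and Csf2 peak in R3T (10.12 and 6.44), and Csf3 is high in 4T1 (7.88) and HRM-1 (7.64).

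Csf1r (gene ID 12978, transcript cluster 10456071, chromosome 18), the receptor of Csf1 and Il34, was lowest in M6 tumors, at 9.04, 9.64, 10.43 and 9.68. E0771 tumors came next with 10.54, 9.31, 10.45 and 10.08 and overlapped those of M6. The M6 mean of 9.70 ± 0.57 (SD, n = 4) stood against 11.01 for the other 11 models, lower by 2.48-fold (difference -1.31, standard error 0.20, adjusted p = 9.34e-07 from limma). E0771 was lower by 0.88 (10.09 ± 0.56, SD, n = 4, against 10.97, adjusted p = 0.000436 from limma). Every model overlapped the next in the order of Csf1r means. At the upper end stood EMT-6 tumors with 11.41, 11.38, 11.58 and 11.45, higher than the rest by 0.61 (11.45 ± 0.09, SD, n = 4, against 10.85, adjusted p = 0.0208 from limma). Without any 1 of the 4 EMT-6 tumors this call was lost (adjusted p from 0.051 to 0.079). In 6DT1, replicate 1 had a Csf1r signal of 9.31 and the other tumors had 11.04, 11.05 and 10.91, and replicate 1 also had the lowest macrophage score of the model, -0.93, the part of which was not tested.

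Csf2ra (gene ID 12982, transcript cluster 10468893, chromosome 19), the ligand-specific chain of the Csf2 receptor, was highest in R3T tumors, at 11.10, 11.05, 10.99 and 11.04. All R3T tumors exceeded every other tumor, the nearest being the EMT-6 and MVT-1 tumors at 10.74. The R3T mean of 11.04 ± 0.05 (SD, n = 4) stood against 10.19 for the other 11 models, a difference of 0.85 (standard error 0.12, adjusted p = 7.73e-07 from limma), or 1.81-fold. M6 tumors were lowest, at 8.94, 9.08, 9.74 and 9.33, and overlapped those of 6DT1 and E0771. Their mean of 9.27 ± 0.35 (SD, n = 4), against 10.35 for the other 11 models, was lower by 2.11-fold (difference -1.08, standard error 0.12, adjusted p = 1.98e-09 from limma).

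Csf2rb (gene ID 12983, transcript cluster 10425066, chromosome 15), the beta chain shared by the receptors of Csf2, Il3 and Il5, had its lowest signals in M6 tumors too, at 8.61, 9.35, 9.95 and 9.22. These overlapped E0771 tumors, at 10.27, 9.18, 9.93 and 9.51. The M6 mean of 9.28 ± 0.55 (SD, n = 4) stood against 10.52 for the other 11 models, lower by 2.36-fold (difference -1.24, standard error 0.20, adjusted p = 4.37e-06 from limma). E0771 and D2A1 were lower than the rest by 0.76 and 0.59 (9.72 ± 0.47 against 10.48, and 9.88 ± 0.27 against 10.47, SD, n = 4 each, adjusted p = 0.00289 and 0.0279 from limma). R3T tumors, at 11.08, 11.23, 11.07 and 10.69, averaged 11.02 ± 0.23 (SD, n = 4) and were higher by 0.66 (adjusted p = 0.0155 from limma). These 3 calls were lost without E0771 replicate 2 (adjusted p = 0.051), without D2A1 replicate 1, 3 or 4 (0.073, 0.16 and 0.077) and without R3T replicate 1, 2 or 3 (0.059, 0.075 and 0.058). The mouse paralog Csf2rb2, the beta chain specific to Il3, followed Csf2rb closely, with r = 0.99 over the 12 model means and 0.97 over the 48 tumors within models. The sequences of the pair are close, so signal shared between their probes cannot be told apart from a shared pattern.

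Csf3r (gene ID 12986, transcript cluster 10508074, chromosome 4), the receptor of Csf3, was highest in EMT-6 tumors, at 9.07, 9.03, 9.17 and 9.12. These lay above all other tumors, though an F311 tumor, also at 9.03, came within rounding of the lowest of them. The EMT-6 mean of 9.10 ± 0.06 (SD, n = 4) stood against 8.27 for the other 11 models, a difference of 0.83 (standard error 0.12, adjusted p = 2.11e-06 from limma). M6 tumors were lowest, at 7.17, 7.22, 7.88 and 7.36, and overlapped D2A1 tumors, at 7.93, 8.02, 7.35 and 7.24. The M6 mean of 7.41 ± 0.32 (SD, n = 4), against 8.42 for the other 11 models, was lower by 2.02-fold (difference -1.02, standard error 0.12, adjusted p = 1.09e-08 from limma). In 4T1 tumors, where Csf3 was highest, Csf3r had 8.35, 8.50, 8.32 and 8.36 and differed from the other 11 models by 0.05, which did not pass.

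**Figure D2:**
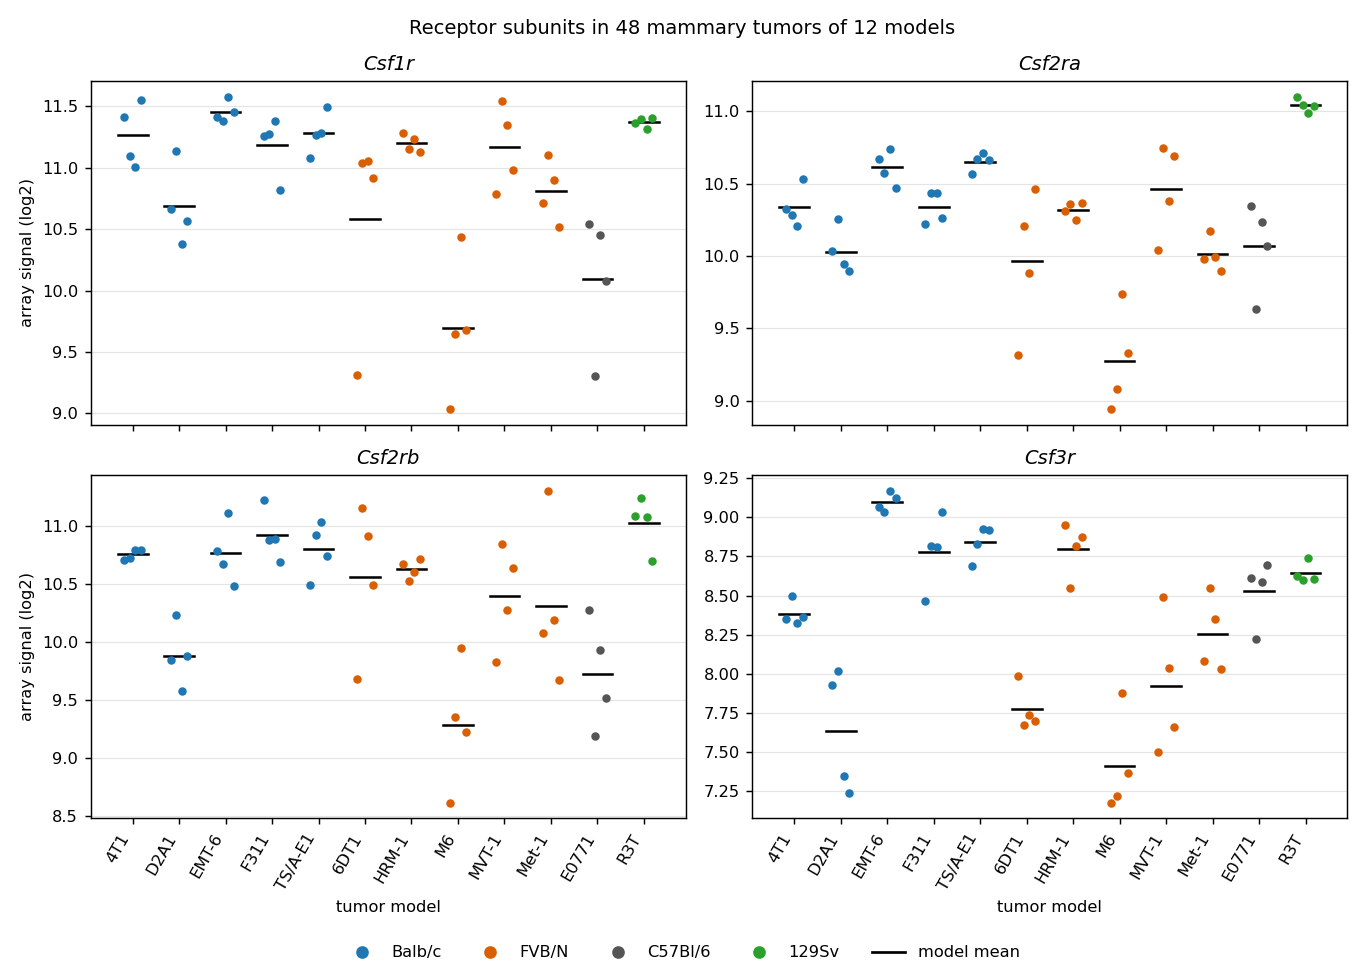
Log2 array signal (vertical axis) of the receptor subunits Csf1r, Csf2ra, Csf2rb and Csf3r in the 12 tumor models (horizontal axis), grouped and colored by strain; each point is 1 tumor, 4 per model, and each bar is the model mean. All 4 genes have their lowest mean in M6 (9.70, 9.27, 9.28 and 7.41), and Csf2ra separates R3T (mean 11.04) from every other tumor.

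Read by model, 47 of the 96 differences between 1 model and the other 11 passed at an adjusted p under 0.05, of which 23 were higher and 24 lower. M6, an FVB/N model, had 7 members lower and 0 higher, where 36.6% of all genes differed in either direction. Its members had a median difference of -1.08, while the median of all genes was -0.0012. Csf3 was the exception in M6, at 7.28, 6.99, 6.90 and 6.80, with a difference of 0.05. R3T, the only 129Sv model, had 6 members higher and 0 lower, against 23.2% of all genes in either direction. Csf1r (11.36, 11.40, 11.31 and 11.40 in R3T tumors) and Csf3 did not pass there. HRM-1 had 4 higher and 0 lower (24.9% of all genes), TS/A-E1 3 higher and 0 lower (16.2%), 4T1 2 higher and 0 lower (24.6%), and F311 1 higher and 0 lower (17.5%).

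D2A1 had 5 members lower and 0 higher (27.5% of all genes), Met-1 3 lower and 0 higher (31.7%), and 6DT1 2 lower and 0 higher (35.5%). Csf2 is counted as lower in D2A1 (5.36 against 5.61) and in Met-1 (5.27 against 5.62), where all values again lie under 5.65. Members moved both ways in 3 models. EMT-6 had Csf1 and the receptors Csf1r, Csf2ra and Csf3r higher and the ligands Il34 and Csf3 lower (23.9% of all genes). E0771 had the Csf1r ligands Csf1 and Il34 higher, by 0.42 and 0.62, and Csf1r, Csf2rb and Csf3 lower (37.5%). In MVT-1, Il34 was higher and Csf3 and Csf3r were lower (20.5%). With both Csf1r ligands higher and Csf1r itself lower, E0771 was the only model of the 12 with that combination of calls. Its macrophage score averaged -0.07 ± 0.37 (SD, n = 4), with 4 of 14 markers higher and 2 lower than in the other models. In EMT-6 the same score averaged 0.50 ± 0.11 (SD, n = 4), with 8 of 14 markers higher and 0 lower, and in R3T 0.14 ± 0.18 (SD, n = 4), with 3 higher and 1 lower. Without the 9 tumors rich in host markers the counts were 2 higher and 2 lower in E0771, 6 and 0 in EMT-6, and 1 and 2 in R3T. The part of these markers in the calls was not tested.

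Of the 47 calls, 28 were kept under every alternative run and 19 were lost under at least 1, with no change of direction. Each of the 19 was lost when 1 tumor was left out. The calls of Csf1 and Csf3r in R3T lay closest to the threshold (adjusted p = 0.048 and 0.046) and were lost without 31 and 20 of the 48 single tumors, so the count of 6 members higher in R3T rests on them. In R3T, Csf2rb was the third such call. The other 16 were Csf2 in 4T1, D2A1 and M6, Csf2ra in 6DT1, EMT-6 and TS/A-E1, Csf2rb in D2A1 and E0771, Csf1r in EMT-6, Csf3 in D2A1, E0771, EMT-6 and MVT-1, Csf3r in F311 and MVT-1, and Il34 in MVT-1, and each was lost without 1 to 4 single tumors of its own model. Without the tumors rich in host markers, 5 of the 19 were lost, namely Csf1 and Csf3r in R3T (adjusted p = 0.12 and 0.082), Csf2 in 4T1 (0.057), Csf2ra in 6DT1 (0.092) and Csf2ra in EMT-6 (0.061).

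**Figure D3:**
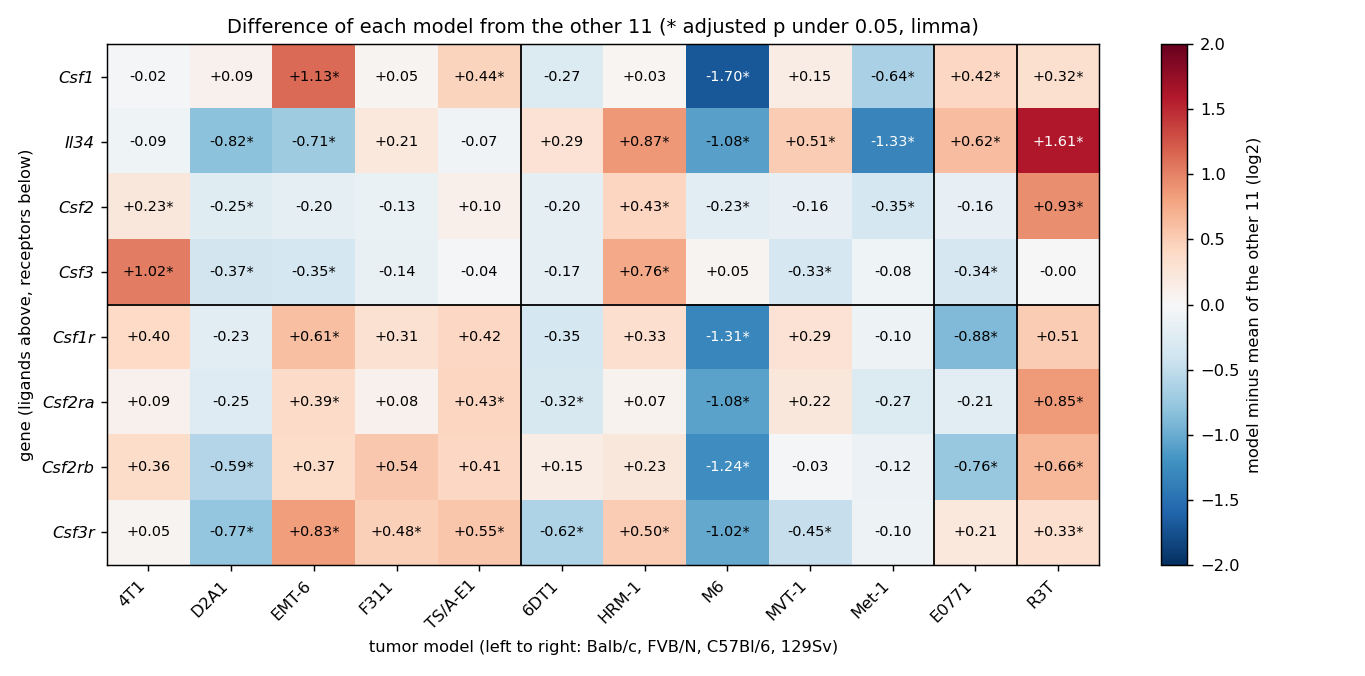
Difference in log2 signal between each tumor model (horizontal axis, grouped by strain) and the mean of the other 11 (color and printed value) for the 8 genes (vertical axis, ligands above the line, receptors below); a star marks an adjusted p under 0.05 from limma. In M6 all genes but Csf3 are lower, from -0.23 for Csf2, which lies near background, to -1.70 for Csf1. In R3T all but Csf1r and Csf3 pass as higher.

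Among the 4 M6 tumors, 1 stood nearer to the other models in most members. M6 replicate 3 had the highest Csf1 (9.44), Il34 (8.11), Csf1r (10.43), Csf2ra (9.74), Csf2rb (9.95) and Csf3r (7.88) of the 4. The score of the 14 measured macrophage markers was -0.38 in that tumor and -1.35, -1.02 and -0.96 in the others. Its epithelial score was 0.62, against 1.91, 1.75 and 1.71. Its fibroblast score, 0.43, was the highest of the 4, while its T and NK cell score, -1.45, was the lowest. Over the 14 macrophage markers, 12 were lower in M6 than in the other 11 models and 0 higher (median -1.08). The largest such difference among the markers named was that of Fcgr1, the high-affinity IgG receptor, which averaged 7.91 in M6 tumors and 9.53 in the other models (difference -1.63, adjusted p = 4.23e-09 from limma). Of the other lists, 8 of 10 T and NK cell markers and 6 of 8 dendritic cell markers were lower in M6, 2 of 14 neutrophil markers were lower, and 6 of 10 epithelial markers were higher, such as Cdh1 (difference 2.08, adjusted p = 1.08e-06). The macrophage score ran from -1.35 to -0.38 in M6 tumors and from -0.93 to 0.66 in the tumors of the other models, and Itgam, an integrin of myeloid cells, still averaged 8.40 in M6. Their part in the lower members was not tested.

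The question of whether a member followed its ligand, its receptor or the myeloid markers was addressed over the 12 model means with 14 correlations, 5 of which passed after adjustment over the 14. All values come from the same arrays, so a tumor's array enters both sides. The macrophage score correlated with Csf1 (r = 0.88, permutation p = 0.00044, adjusted p = 0.0037, and rho = 0.74, permutation p = 0.0077, adjusted p = 0.036). It did so with Csf2ra (r = 0.86, permutation p = 0.00079, adjusted p = 0.0037, and rho = 0.85, permutation p = 0.00096, adjusted p = 0.013). It also did so with Csf1r (r = 0.84, permutation p = 0.00070, adjusted p = 0.0037, and rho = 0.78, permutation p = 0.0041, adjusted p = 0.029). For Csf2rb r was 0.73 (permutation p = 0.0071, adjusted p = 0.025), while rho, at 0.64, did not pass (permutation p = 0.028, adjusted p = 0.065). M6 and EMT-6 were the models farthest from the median score, and without them r was 0.62 for Csf1, 0.69 for Csf2ra, 0.63 for Csf1r and 0.44 for Csf2rb. None of these 4 passed after adjustment over the 14 in that setting (permutation p = 0.052, 0.025, 0.051 and 0.20, adjusted p = 0.17, 0.17, 0.17 and 0.28). The calls were thus not kept without M6 and EMT-6. That setting also has fewer models and a narrower range of scores, so it cannot decide whether the relations rest on them. Without M6 alone, a setting added with the results known, r was 0.73, 0.71, 0.69 and 0.47 for the same genes (adjusted p = 0.064, 0.064, 0.065 and 0.33). Over the 5 Balb/c models alone r was 0.84, 0.96, 0.90 and 0.70 for the same genes, and over the 5 FVB/N models, M6 included, 0.96, 0.98, 0.94 and 0.80.

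The same relations were computed within models, where the difference between genes was not tested. When each tumor was taken as its deviation from the mean of its model, the macrophage score correlated over the 48 tumors with Csf1r (r = 0.83, permutation p = 2e-05, adjusted p = 0.00014, and rho = 0.70, permutation p = 2e-05, adjusted p = 0.00014). The same held for Csf2ra (r = 0.83, permutation p = 1e-05, the smallest that 100000 resamples can give, adjusted p = 0.00014, and rho = 0.67, permutation p = 2e-05, adjusted p = 0.00014). For Csf2rb r was 0.56 (permutation p = 0.0051, adjusted p = 0.024, and rho = 0.45, permutation p = 0.0071, adjusted p = 0.033). For Csf1 r was 0.30 and did not pass (permutation p = 0.16, adjusted p = 0.37, and rho = 0.17, permutation p = 0.32, adjusted p = 0.61). The neutrophil score correlated within models with Csf3r (r = 0.38, permutation p = 0.012, adjusted p = 0.042) and with Csf2rb (r = 0.45, permutation p = 0.018, adjusted p = 0.049, and rho = 0.39 and 0.37, permutation p = 0.016 and 0.017, adjusted p = 0.049 each). Without the 2 tumors farthest on the score, these 5 values of r were 0.79 for Csf1r, 0.74 for Csf2ra and 0.54 for Csf2rb with the macrophage score, and 0.31 for Csf3r and 0.28 for Csf2rb with the neutrophil score. For Csf1 with the macrophage score, r rose from 0.30 to 0.44 in the same setting. Over the model means neither relation to the neutrophil score passed (r = 0.46 and 0.40, permutation p = 0.13 and 0.20, adjusted p = 0.21 and 0.28, with rho = 0.58 and 0.47, permutation p = 0.052 and 0.13, adjusted p = 0.10 and 0.18). Without D2A1 and Met-1, the models farthest on that score, these r were 0.68 and 0.62 (permutation p = 0.031 and 0.059). Neither passed after adjustment in that setting. Over the Balb/c models alone they were 0.84 and 0.89, and over the FVB/N models 0.54 and 0.25. The ligands Il34 with the macrophage score (r = 0.48, permutation p = 0.12, adjusted p = 0.20) and Csf3 and Csf2 with the neutrophil score (r = 0.35 and 0.08, permutation p = 0.25 and 0.77, adjusted p = 0.32 and 0.77) did not pass over the model means.

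**Figure D4:**
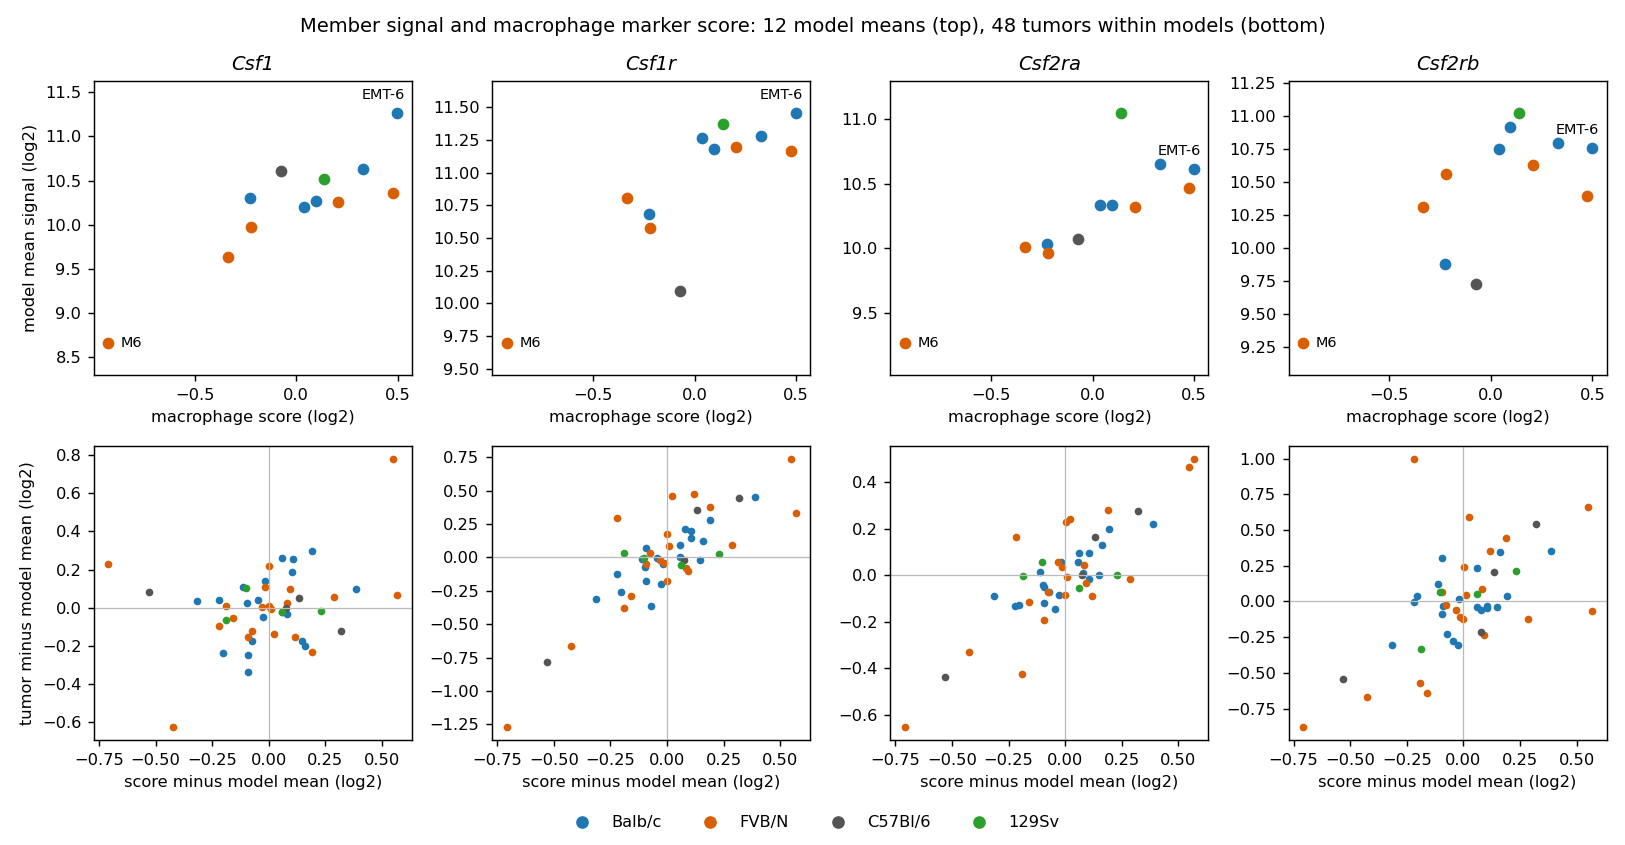
Log2 signal of Csf1, Csf1r, Csf2ra and Csf2rb (vertical axes) against the macrophage marker score (horizontal axes, log2), colored by strain; the upper row has 1 point per model mean (12 models), and the lower row 1 point per tumor as its deviation from its model mean (48 tumors). M6 lies apart at a score of -0.93 in each upper panel, and the lower panels show r = 0.83 for Csf1r and Csf2ra against 0.30 for Csf1. Without the 2 tumors farthest on the score, r for Csf1 is 0.44.

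Of the 5 pairs of ligand and receptor, only Csf1 with Csf1r passed over the model means by r (r = 0.69, permutation p = 0.015, adjusted p = 0.043), and by rank it did not (rho = 0.56, permutation p = 0.062, adjusted p = 0.11). Without EMT-6 and M6, the models with the most extreme Csf1, r was 0.11 (permutation p = 0.76), so this relation rests on those models. It was also lost under quantile normalization (r = 0.68, adjusted p = 0.055), without the 9 tumors rich in host markers (r = 0.62, adjusted p = 0.060), without any 1 of 5 tumors (6DT1 replicate 1, E0771 replicate 1 or 3, M6 replicate 1 or Met-1 replicate 4, adjusted p = 0.067, 0.073, 0.058, 0.059 and 0.054) and within models (r = 0.20, permutation p = 0.38, adjusted p = 0.59). Csf2 passed with Csf2ra and with Csf2rb by rank only (rho = 0.72 and 0.71, permutation p = 0.011 and 0.013, adjusted p = 0.036 each, with r = 0.64 and 0.54, permutation p = 0.032 and 0.067, adjusted p = 0.074 and 0.13). Without HRM-1 and R3T, the models farthest on Csf2, r was 0.46 and 0.47. Il34 with Csf1r (r = 0.34, permutation p = 0.28, adjusted p = 0.33, and rho = 0.22, permutation p = 0.49, adjusted p = 0.57) and Csf3 with Csf3r (r = 0.16, permutation p = 0.62, adjusted p = 0.67, and rho = 0.08, permutation p = 0.80, adjusted p = 0.80) did not pass. Over the Balb/c and the FVB/N models alone, r for Csf1 with Csf1r was 0.58 and 0.95, and for Csf3 with Csf3r -0.05 and 0.69.

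The strains were compared next. With model means as the units, 0 of 8 members passed between the 5 Balb/c and the 5 FVB/N models, and 0.191% of all genes did. Csf1 came nearest, with means of 11.26 (EMT-6), 10.63 (TS/A-E1), 10.30 (D2A1), 10.27 (F311) and 10.20 (4T1) in Balb/c models, against 10.36 (MVT-1), 10.25 (HRM-1), 9.97 (6DT1), 9.63 (Met-1) and 8.67 (M6) in FVB/N models. The strains overlapped, and the difference was 0.76 ± 0.34 (standard error, n = 5 models each, adjusted p = 0.63 from limma, exact permutation test over the 10 models, 2-sided p = 0.063, where the smallest possible is 0.0079). For the other 7 members the difference lay between -0.14 for Il34 and 0.52 for Csf3r, with exact p-values from 0.13 to 0.91 in the same permutation test. At an unadjusted p under 0.05 limma likewise called 0 of the 8. Strain and the origin of the line go together in these 10 models and cannot be told apart. R3T is the only 129Sv model and E0771 the only C57Bl/6 model. Line and host strain therefore cannot be told apart in any difference of R3T or E0771 given above. Among the 5 Balb/c models, 7 of 8 members differed (46.7% of all genes), Csf1r being the exception (range of means 0.77, adjusted p = 0.13 from limma). Among the 5 FVB/N models, 8 of 8 differed (62.4% of all genes).

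The genes around the family were followed with lists of family receptors and paralogs, of receptor signaling, and of 10 cytokines that can induce the ligands with 5 chemokines. Of 7 family receptors and paralogs, 4 differed among the 12 models, where 70.4% of all genes did so. Il3ra, the ligand-specific chain of the Il3 receptor, was highest in MVT-1 tumors (9.03 ± 0.08) and lowest in M6 tumors (7.91 ± 0.12, SD, n = 4 each). Ptprz1 and Sdc1, described as further binding partners of the Il34 protein, were higher in M6, where Il34 was lower. Ptprz1 averaged 7.30 ± 1.09 in M6 tumors (SD, n = 4) and 4.91 in the other models (adjusted p = 1.67e-12 from limma), which is at the lowest decile of gene means, 4.92, so the size of the difference is not given. Sdc1 averaged 12.14 ± 0.08 (SD, n = 4) and 10.96 (difference 1.18, adjusted p = 3.37e-06 from limma). The remaining genes of the list, Il3, Il5 and Il5ra, had means of 4.62, 4.80 and 4.86 over the 48 tumors and did not pass.

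Of 20 measured genes of receptor signaling, 19 differed among the models (70.4% of all genes). In M6, 10 were lower and 0 higher (12 and 2 without the tumors rich in host markers). The kinase Jak2, which Csf2rb and Csf3r use, was highest in 4T1 tumors (11.33 ± 0.12) and lowest in M6 tumors (8.87 ± 0.10, SD, n = 4 each). Fes, a kinase of myeloid cells, was highest in EMT-6 (9.94 ± 0.06) and lowest in M6 (8.25 ± 0.27), the same ends as Csf1, Csf1r and Csf3r. Those ends were not particular to Fes, since Spi1 and the macrophage markers Fcgr1 and Itgam had them too. Spi1, a gene chosen here after its values were seen, averaged 8.68 in M6 tumors and 10.27 in the other models (difference -1.59, adjusted p = 3.29e-09 from limma). Stat3, which transmits the Csf3 signal, was highest in 4T1 (11.60 ± 0.12) and lowest in D2A1 (10.88 ± 0.15, SD, n = 4 each), as Csf3 was. The low end of Csf3 was hardly set apart, with means of 6.61 in D2A1, 6.63 in EMT-6, 6.63 in E0771 and 6.64 in MVT-1. Neighbors among these overlapped. Plcg2, a phospholipase downstream of Csf1r, was also highest in 4T1 tumors (11.30 ± 0.30, SD, n = 4). Counted by model, EMT-6 had 10 genes of the list higher and 1 lower, TS/A-E1 9 and 1, 4T1 7 and 0, and D2A1 0 higher and 6 lower.

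Of these 15 cytokines and chemokines, 13 differed among the models (70.4% of all genes), with a median range of 2.61. EMT-6 had 8 higher and 1 lower, M6 1 higher and 8 lower, and Met-1 1 higher and 8 lower. For the 10 cytokines alone, 8 of which differed, the counts were 4 higher and 1 lower in EMT-6, 1 and 6 in M6, and 1 and 4 in Met-1. Il1a, a strong inducer of Csf3 and Csf2, was highest in 4T1 tumors, the model highest in Csf3, at 9.44 ± 0.43, and lowest in MVT-1 tumors, at 5.61 ± 0.60 (SD, n = 4 each). Tslp was likewise highest in 4T1 (10.06 ± 0.25) and lowest in EMT-6 (5.22 ± 0.12). Tnf and Ifng, inducers of Csf1 among other genes, were highest in E0771 tumors (9.04 ± 0.14 and 8.53 ± 0.39, SD, n = 4 each), a model in which Csf1 was higher than the rest, and lowest in 6DT1 tumors (6.77 ± 0.11 and 6.39 ± 0.20, SD, n = 4 each). Neither Tnf nor Ifng was highest in EMT-6, the model highest in Csf1. In M6, the model lowest in Csf1, Tnf was the cytokine counted as higher. Its means were 8.54 in M6 and 7.97 in the other models (difference 0.57, adjusted p = 0.00039 from limma). The part of these cytokines in the levels of the ligands was not tested.

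The genes whose 12 model means followed each member most closely were picked for likeness among all genes, so their r values are a description. For Csf1 they were Lilrb4a (r = 0.95), Myo1f (0.94) and Irf5 (0.93), with r of 0.44, 0.25 and 0.31 over the tumors within models. For Csf1r they were Ncf4 (r = 0.97), a subunit of the phagocyte oxidase, P2ry6 (0.96) and Card9 (0.95), and within models 0.68, 0.66 and 0.46. Csf2ra was nearest to the complement genes C1qa (r = 0.96) and C1qc (0.93) and to Il10ra (0.93), which also followed it within models, at 0.82, 0.78 and 0.79. After its paralog, Csf2rb was nearest to Acox3 and Cmklr1 (r = 0.94 each, within models 0.80 and 0.78). The genes nearest to Csf3r were Bcar3 (r = 0.96), Fam207a (0.90) and Trem3 (0.90), with only -0.03, 0.08 and 0.39 within models. Those nearest to the ligands followed them over the models but less within: for Csf2 Wnt7a (0.99, within models 0.32), Lilra5 (0.94 and 0.22) and Mcpt8 (0.92 and 0.32), and for Csf3 Fam169a (0.96 and 0.21), Cpa1 (0.92 and 0.18) and Igsf9 (0.91 and 0.06). For Il34 they were F10 (0.95 and 0.24), Abcb1b (0.93 and 0.66) and Poldip2 (0.90 and 0.09).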

How the data were processed

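RNA from 48 tumors was hybridized to Affymetrix mouse gene arrays, 1 array per tumor. The authors deposited processed values as log2 signal for 35556 transcript clusters, and these were used unchanged. How they were normalized, and with what software, is not given in the sources used here. The supplied probe annotation named 1 gene for 21789 clusters, several for 1621 and none for 12146, and 21698 matched a RefSeq gene ID. Clusters with 1 gene were kept, and of 999 genes with several clusters the brightest was used, which left 19938 genes. Array coordinates are not printed, since their build is not given.

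Models were the groups of a linear fit in limma 3.58.1 (R 4.3.3). Contrasts set each model against the mean of the other 11, and strains were compared on model means. P-values were Benjamini-Hochberg adjusted over all genes within each contrast, with a threshold of 0.05, and over 14 relations for correlations, which used 2-sided permutations with 100000 resamples. Python 3.11.15, numpy 2.4.6, pandas 2.3.3, scipy 1.17.1 and matplotlib 3.10.9 were used. The fits were tested on simulated data. Samples were grouped by their labels, which give no batch, and no arrays were identical. Replicate numbers did not pair the tumors.

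Genes named were the 8 members, up to 4 genes per list with the smallest F-test p (Spi1, Il3, Il5, Il5ra, Epx and Prg2 apart), the 3 genes nearest to each member in model means, and every difference of at least 1. Members and lists were chosen with earlier results of these data known. Alternatives comprised quantile normalization, array centring, the mean of clusters, leaving out the dimmest 30% of genes, other limma settings, a replicate block, and leaving out tumors or models. Correlations without M6, marker counts without the tumors rich in host tissue and cytokine counts without chemokines were added after the data were seen. Protein levels and tissue stains are not analysed here.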

Additional observations from a re-analysis of the deposited data

Results flagged for a closer look

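The 8 genes in 12 models make 96 groups of 4 tumors, and in 5 of them 1 tumor stood far from the others relative to the range of its group (Dixon's criterion). Chance marks about 1 in 20 such groups. Il34 was 7.91 in F311 replicate 1, with the nearest F311 tumor at 9.13. Csf1r was 9.31 in 6DT1 replicate 1, with the nearest 6DT1 tumor at 10.91. Csf3 was 7.99 in HRM-1 replicate 4, where the nearest was 7.57, and Csf2 was 5.74 in HRM-1 replicate 2, where the nearest was 6.05. In TS/A-E1 the Csf1 signal of replicate 2 was 10.74 and the nearest was 10.60. The F311 tumor is among the 9 with high B cell or adipocyte scores, and the other 4 are not.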

How the results depend on the processing

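Under the alternatives run for them, including each tumor left out in turn, the F-tests of the members over the 12 models and the 10 differences of at least 1 kept their direction and their side of the threshold, except that the filter on dim genes removed Csf2 and left 7 members. Of all 47 calls for single models, 28 were kept throughout and 19 lost somewhere, without a change of direction. The uncalled difference of Csf3 in M6 changed sign without the tumors rich in host markers (-0.0042) and ran from -0.043 without M6 replicate 1 to 0.12 without M6 replicate 4. Without 1 tumor, the members that passed among the 5 Balb/c models numbered 6 to 8 and the calls for single models 43 to 51.

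The strain comparison depended on its unit. The number of genes that passed was 38 on model means, 489 with all tumors and the model as a random block, and 446 when a replicate block was added to that. With 1 model or tumor left out it ran from 19 to 51. No member passed in any of these. Uncalled strain differences changed sign when 1 tumor or model was left out, with ranges of -0.015 to 0.17 for Csf2, -0.25 to 0.14 for Csf3 and -0.41 to 0.097 for Il34. Replicate numbers did not pair the samples (median r of deviations 0.03 over 264 pairs with the same number and 0.00 over others), and the replicate block ended the calls of Csf1 and Csf3r in R3T (adjusted p = 0.056 and 0.051) and no other call of a member.

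Of the 14 relations, 5 passed over the model means, 4 under quantile normalization, where Csf1 with Csf1r was lost, 4 to 6 with 1 tumor left out, 0 without the 2 models farthest on the x axis and 0 without M6, which was added with the results known. Without the 2 farthest models r for Csf3 with Csf3r was -0.060. Within models r was -0.0063 for Il34 with Csf1r, -0.12 and -0.22 for Csf2 with Csf2ra and Csf2rb, -0.089 for Csf3 with Csf3r, and -0.18 and -0.0028 for the neutrophil score with Csf3 and Csf2. The causes were not tested. Array signal saturates and includes background, and Csf2 lies near the latter.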

Other observations

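Within models, pairs of members that are not ligand and receptor also moved together. Over the 48 tumors, taken as deviations from their model means, Csf1r correlated with Csf2ra (r = 0.84) and Csf2rb (r = 0.79), and Csf2ra with Csf2rb (r = 0.73). The ligand Il34 correlated with Csf1 (r = 0.55) and with Csf3r (r = 0.47). Csf3 ran against the receptors, with r of -0.60 with Csf2rb, -0.48 with Csf1r and -0.35 with Csf2ra. Over the 12 model means the pairs of Csf3 had r of 0.26, 0.23 and 0.04, so the sign differed between the levels. These are 28 pairs of genes on the same arrays, given as a description.

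Of 9 markers of mast cells and eosinophils, cells that respond to Csf2, Il3 and Il5 through Csf2rb, 6 were higher and 0 lower in TS/A-E1 tumors, and 1 was higher and 6 were lower in HRM-1 tumors. The eosinophil genes Epx and Prg2 did not pass among the models (adjusted p = 0.13 and 0.35 from limma), and Siglecf was highest in R3T. The 6 mast cell genes had their highest mean in TS/A-E1 and their lowest in HRM-1. The mast cell tryptase Tpsb2 averaged 9.21 ± 0.51 (SD, n = 4) in TS/A-E1 and 6.61 ± 0.25 (SD, n = 4) in HRM-1 tumors. Csf2rb means in these models were 10.79 and 10.63. Of 10 T and NK cell markers, 6 were higher in F311 tumors, with scores of 1.63 and 1.32 in replicates 1 and 2, which are rich in B cell markers, and 0.067 and 0.024 for its other tumors. With the 9 tumors rich in host markers left out, which left 2 F311 tumors, 0 of 10 were higher in F311. In M6 tumors 8 of 10 were lower, and 9 without those tumors. The neutrophil list had 7 of 14 genes higher and 2 lower in Met-1 tumors (5 and 2 without the tumors rich in host markers), with S100a8 at 9.24 ± 0.22 (SD, n = 4), while Csf3r in Met-1 tumors (8.25 ± 0.24, SD, n = 4) did not pass against the other models. The median difference over the list in Met-1 was 0.46, and 0.08 without the tumors rich in host markers. Replicate 2, which is among those tumors, had a neutrophil score of 1.30. Replicates 1, 3 and 4 had 0.26, 0.71 and 0.49.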
